A study of Mus musculus with 34 samples.

Results

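Hearts of mice that alternated a high-fat, high-calorie diet with periods of a fasting mimicking diet (HFCD+FMD) were compared with hearts of mice kept on the high-fat diet throughout (HFCD). The comparison used 8 of the 14 heart libraries with a count column, 4 of HFCD+FMD (replicates 1, 2, 3 and 5) and 4 of HFCD (replicates 1 to 4). The libraries were selected on the level of Bmp10, a gene of atrial muscle, and HFCD replicate 5 was left out because Bmp10 stood above 9 log2 CPM there (each count scaled to the size of its library, on the log2 scale). The series as a whole lists 34 libraries of heart and adipose tissue, of which 27 had a count column. All mice were C57BL/6J and on the same high-fat food, which drew 60% of its calories from fat. Mice of the HFCD+FMD group ate the fasting mimicking diet for 5 days every 4 weeks, and from cycle 6 onward the fast was followed by 2 days of control diet. Hearts were taken after 11 cycles, 4 days after the last fast, from mice of 20 or 21 months in both groups (HFCD replicate 5 was 22 months old). Another group of 5 heart libraries came from mice on a control diet with 10% of calories from fat, and its values are given for orientation. The labels tie no library to an animal and name no sex.

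A heart draws most of its energy from fatty acids, which are burned in mitochondria through fatty acid oxidation, the tricarboxylic acid cycle and the respiratory chain. Nuclear receptors of the PPAR family bind fatty acids and switch on the genes that import and oxidise them, together with Pdk4, which keeps pyruvate out of the cycle. Fasting and high-fat food are both known to raise these genes, and the days of refeeding after a fast are a time of protein synthesis in many tissues. Heart muscle also contains endothelium, fibroblasts, smooth muscle and immune cells, so a level in whole tissue can differ because cells of a type are fewer or because each holds less of the RNA, and these cannot be told apart here.

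Library composition differed within the groups and has to be set beside each result. The libraries held 17050559 to 47859170 counts under HFCD+FMD and 23707218 to 29897306 counts under HFCD. Mitochondrially encoded genes took 30.1, 29.5, 62 and 61.4% of the counts in HFCD+FMD replicates 1, 2, 3 and 5, and 36.4, 42.7, 71.5 and 37.8% in HFCD replicates 1 to 4. The means of 45.8 ± 18.4% and 47.1 ± 16.5% (SD, n = 4 each) differed by -1.31 percentage points (two-sided exact permutation test, p = 1). Replicates 3 and 5 of HFCD+FMD and replicate 3 of HFCD were the high libraries, so the split ran through both diets.

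The deposited log2 values had lost, for every gene, a term shared within each of 3 sets of libraries. Set A held HFCD replicates 1 to 4 and 3 control libraries. HFCD+FMD replicate 1 and 2 control libraries formed set B, and HFCD+FMD replicates 2, 3 and 5 together with HFCD replicate 5 formed set C. The labels do not say what the sets are. No set holds both diets among the 8 libraries compared, so diet and set cannot be told apart in this comparison. HFCD replicate 5, the library left out, is the one that shares a set with HFCD+FMD libraries, and its value is therefore given beside many of the genes that follow. The largest component of variation among the 8 libraries carried 61.1% of the variance of the 1000 most variable genes. It placed HFCD+FMD replicates 2, 3 and 5 at 31.8, 43.4 and 43.6, apart from HFCD+FMD replicate 1 at -23.3 and the HFCD libraries at -26.3 to -20.9.

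Bmp10 chose the library left out and is described without a test of the diets. It stood at -1.93, -1.46, -1.37 and 1.42 log2 CPM under HFCD+FMD, at -1.35, -0.3, -0.22 and -0.24 under HFCD, and at 9.73 in HFCD replicate 5. HFCD+FMD replicate 5 was thus the nearest library on the other side of the threshold. Other atrial muscle genes did not follow Bmp10 in every library. The atrial myosin light chain Myl7 stood at -2.63 to -2.4 log2 CPM under HFCD+FMD and at -2.98 to -1.18 in HFCD replicates 1, 2 and 4, but at 7.08 in HFCD replicate 3, close to the 7.56 of the library left out. Sln, a small atrial inhibitor of the calcium pump, showed the same order, with 0 to 3 counts under HFCD+FMD, 0 to 1 in those 3 HFCD libraries and 424 in HFCD replicate 3. The 9 atrial markers tested summed to 153 to 189 CPM under HFCD+FMD, to 135 to 150 CPM in HFCD replicates 1, 2 and 4, and to 737 CPM in HFCD replicate 3. HFCD replicate 3 stayed in the comparison by its rule, and the counts of the gene lists are given with and without it. The library left out also stood apart in Xist, the RNA that coats the inactive X chromosome, which read -0.74 log2 CPM there and 5.87 to 7.54 in the other 13 heart libraries.

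**Figure D1:**
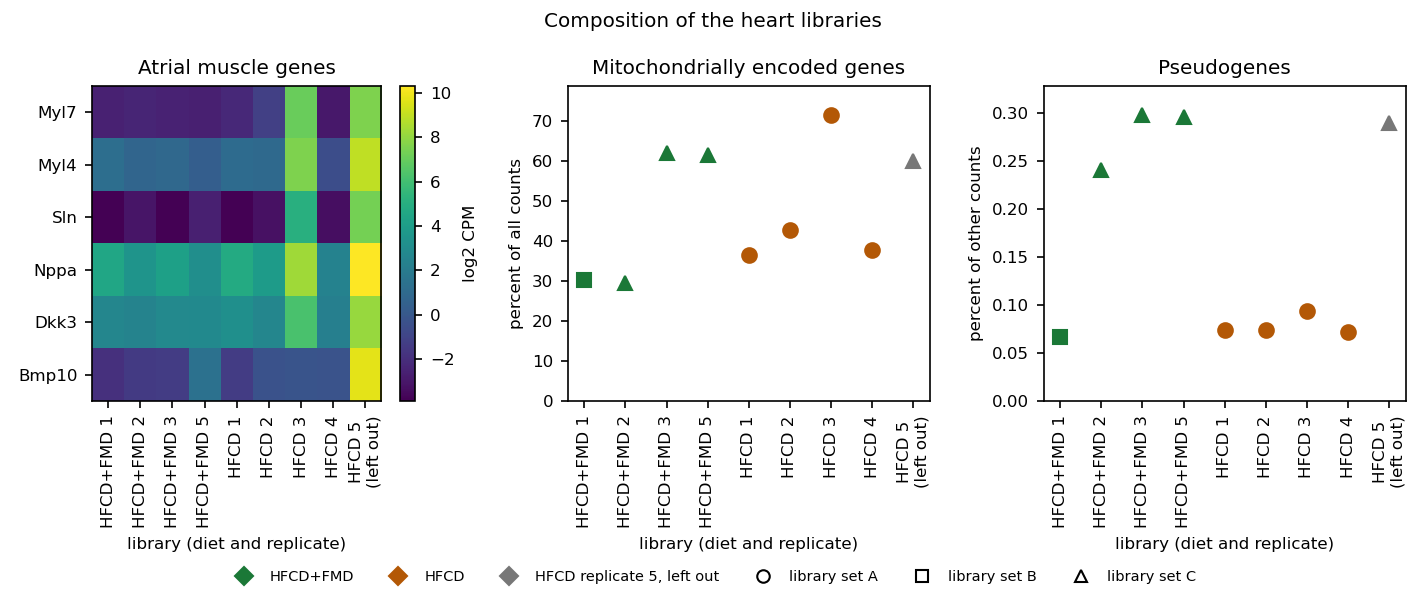
Composition of the 4 HFCD+FMD libraries, the 4 HFCD libraries and the HFCD library left out. The left panel shows log2 CPM of 6 atrial muscle genes by colour, the middle one the percent of counts from mitochondrially encoded genes and the right one the percent of the other counts from pseudogenes, with marker shape giving the library set. HFCD replicate 3 carries atrial genes (Myl7 at 7.08), and the pseudogene share is 0.24 to 0.298% in the 4 libraries of set C and 0.0668 to 0.0938% in the other 5.

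The question of the comparison was what the fasting cycles changed in hearts that stayed on high-fat food. No gene passed the threshold. Of the genes counted, 13060 passed the filter on low counts and were tested, and 0 were called (0.0%; edgeR quasi-likelihood test, Benjamini-Hochberg adjusted p below 0.05), the smallest adjusted p being 0.123. At an unadjusted p below 0.05 stood 709 genes that were higher under HFCD+FMD (5.43%) and 692 that were lower (5.3%). Every HFCD+FMD library was above every HFCD library for 536 genes (4.1%), and below every HFCD library for 460 (3.52%). These shares are the background against which the gene lists below are read. With HFCD replicate 3 left out they were 9.37% and 10.1%, and with HFCD replicate 5 put back they were 2.62% and 2.07%, where 342 of the 536 and 270 of the 460 genes still did not overlap. DESeq2 called 426 genes on the same 8 libraries, 253 higher and 173 lower, limma voom called 0, and voom with a weight for each library called 38. The count thus differed with the test, and the differences below are given as values, not as changes that passed.

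The 10 genes with the smallest p all had non-overlapping groups, and 3 of them belong to iron uptake, heme synthesis and the cytoskeleton. Tfrc encodes the transferrin receptor, which brings iron into the cell. It had 110, 153, 139 and 161 CPM in the HFCD+FMD libraries, against 58, 37.8, 75.3 and 56.1 CPM in the HFCD libraries (log2 fold change 1.31, SE 0.21, adjusted p = 0.123). HFCD replicate 5 had 6.63 CPM and the control libraries 9.91 to 35.8 CPM, so each of the 4 HFCD+FMD libraries also lay above every other heart library.

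Alas1 makes the first committed step of heme synthesis, which uses that iron. Its level was 198, 249, 298 and 274 CPM under HFCD+FMD, against 102, 130, 120 and 150 CPM under HFCD (1.02, SE 0.16, adjusted p = 0.123), with 57 CPM in HFCD replicate 5 and 115 to 152 CPM in control libraries. Tuba4a, an alpha-tubulin of the microtubules, had 625, 836, 875 and 859 CPM in HFCD+FMD hearts, against 438, 328, 382 and 364 CPM in HFCD hearts (1.08, SE 0.14, adjusted p = 0.123). In HFCD replicate 5 Tuba4a was at 139 CPM, and the controls spanned 339 to 578 CPM. For these 3 genes HFCD replicate 5 was the lowest of the HFCD libraries. It shares set C with HFCD+FMD replicates 2, 3 and 5, and it is also the library left out for its atrial Bmp10 level. With the library sets entered as a factor, together with HFCD replicate 5 and the controls, the differences were 2.9 for Tfrc, 1.49 for Alas1 and 1.8 for Tuba4a. In that fit HFCD replicate 5 is the only HFCD library that shares a set with HFCD+FMD. Within the 8 libraries the part of the library set cannot be told apart from diet.

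Tuba4a lies on chromosome 1 at 75214228 to 75219865 (minus strand, GRCm38), Tfrc on chromosome 16 at 32608920 to 32632794 (plus strand) and Alas1 on chromosome 9 at 106233455 to 106248654 (minus strand). The deposited counts are per gene and do not resolve exons.

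Among the 10 genes, 4 others were higher under HFCD+FMD. Rpl39, a protein of the large cytosolic ribosomal subunit, had 10.7, 9.24, 7.51 and 9.15 CPM in HFCD+FMD libraries, against 3.6, 3.43, 4.64 and 4.27 CPM in HFCD libraries (1.21, SE 0.16). Nme1, a nucleoside diphosphate kinase, had 6.69 to 7.9 CPM under HFCD+FMD and 3.76 to 4.43 CPM under HFCD (0.87, SE 0.13). Chchd1, a protein of the mitochondrial ribosome, had 22 to 29.2 CPM and 14.6 to 16.8 CPM (0.70, SE 0.12) in HFCD+FMD and HFCD hearts. In all 3 the library left out lay above its HFCD companions, at 5.49, 6.06 and 25.3 CPM, and for Chchd1 it lay inside the HFCD+FMD range. With the library sets as a factor the differences were 0.74 for Rpl39, 0.57 for Nme1 and 0.3 for Chchd1.

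Mir6236, a microRNA locus, is shown with its RefSeq mature sequence (GRCm38.p6, chr9:110281353-110281371, plus strand), in which capitals mark the seed, bases 2 to 8, because it is the only microRNA locus among the 10.
mmu-miR-6236: gCCGUCGCcggcagucagg
Mir6236 had 73.9, 26.9, 33.1 and 25.2 CPM under HFCD+FMD, against 6.81, 9.1, 3.93 and 6.1 CPM under HFCD (2.60, SE 0.39, adjusted p = 0.123). HFCD replicate 5 had 21.5 CPM and the control libraries 10.1 to 73.5 CPM, so that the 4 HFCD libraries of set A were the low ones. With the library sets as a factor the difference of Mir6236 was 0.7. The libraries were made from ribosome-depleted total RNA and the labels name no selection of small RNA, so these counts are not a measure of the mature microRNA.

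The 3 others of the 10 were lower under HFCD+FMD. Abat, the enzyme that breaks down the transmitter GABA, had 9.64, 8.94, 8.33 and 7.88 CPM in HFCD+FMD hearts, against 14.1, 15, 17.2 and 14.6 CPM in HFCD hearts (-0.81, SE 0.12, adjusted p = 0.123), with 26.6 CPM in HFCD replicate 5 and 11.4 to 33.2 CPM in controls. Col28a1, a collagen chain, had 0.241 to 0.457 CPM under HFCD+FMD and 0.994 to 1.58 CPM under HFCD (-1.92, SE 0.31), with 2.37 CPM in HFCD replicate 5. Mnt, a repressor that competes with Myc for its partner Max, had 8.52 to 10.9 CPM and 14.8 to 16.9 CPM in HFCD+FMD and HFCD libraries (-0.70, SE 0.12), and the library left out lay between them at 11.8 CPM. With the library sets as a factor the differences were -1.39 for Abat, -2.55 for Col28a1 and -0.44 for Mnt.

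**Figure D2:**
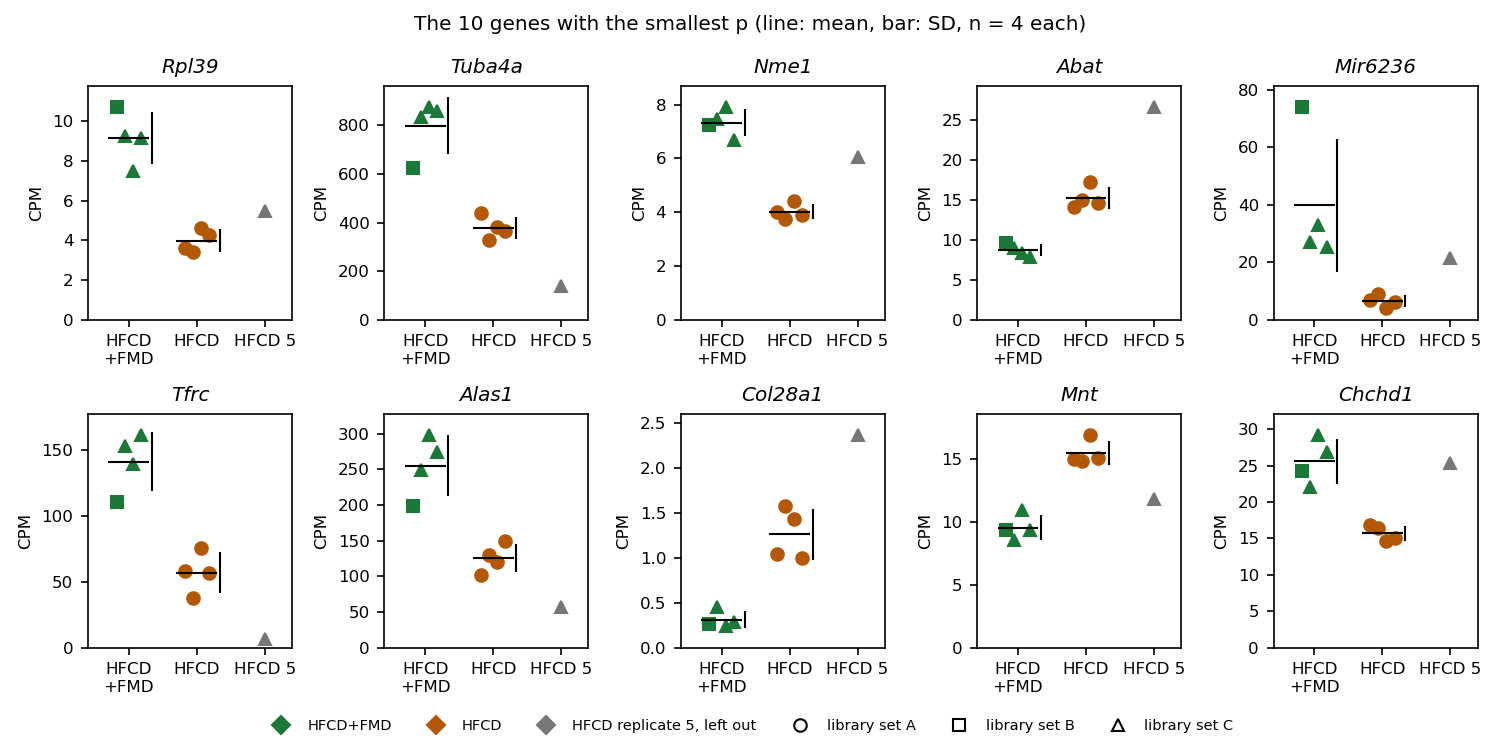
CPM of the 10 genes with the smallest p in each library, with HFCD+FMD left of HFCD and the library left out at the right, the mean as a line and the SD as a bar (n = 4 each). The groups do not overlap in any panel, and HFCD replicate 5 lies on the far side of HFCD for Tfrc, Alas1, Tuba4a, Abat and Col28a1 but towards HFCD+FMD for Rpl39, Nme1, Mir6236, Mnt and Chchd1.

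Nuclear genes of the respiratory chain and genes of the tricarboxylic acid cycle had positive medians in HFCD+FMD over HFCD hearts. For the cycle the share of members that did not overlap was near the background. The sign of the median of mitochondrially encoded genes turned on HFCD replicate 3. The nuclear subunits of complex I, the entry of the respiratory chain, had a median log2 fold change of 0.24 against -0.0046 over all genes tested, and 6 of 36 lay above every HFCD library with 0 below (16.7%, against 4.1% of all genes). For complexes III to V the median was 0.26, with 7 of 34 above and 0 below (20.6%). Ndufb9, a subunit of complex I, had 292, 237, 289 and 251 CPM under HFCD+FMD, against 186, 195, 178 and 205 CPM under HFCD (0.49, SE 0.11, adjusted p = 0.156), and 252 CPM in HFCD replicate 5. Uqcrh, the hinge protein of complex III, had 270, 217, 263 and 262 CPM in HFCD+FMD hearts, against 185, 171, 179 and 184 CPM in HFCD hearts (0.49, SE 0.10, adjusted p = 0.139), and 209 CPM in HFCD replicate 5. Cox7a2, a subunit of complex IV, had 128 to 182 CPM and 83.2 to 110 CPM in HFCD+FMD and HFCD libraries (0.57, SE 0.14, adjusted p = 0.178). The ATP synthase subunit Atp5h had 138 to 206 CPM under HFCD+FMD and 91.2 to 135 CPM under HFCD (0.65, SE 0.18, adjusted p = 0.22). In HFCD replicate 5 Cox7a2 stood at 137 CPM and Atp5h at 154 CPM, so for Ndufb9, Cox7a2 and Atp5h it lay inside the HFCD+FMD range and for Uqcrh between the diets.

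Single libraries varied within each diet. Relative to the mean of the HFCD libraries, the median complex I subunit stood at 0.47, 0.27, 0.24 and 0.09 on the log2 scale in HFCD+FMD replicates 1, 2, 3 and 5, and at 0.04, 0.04, -0.25 and 0.21 in HFCD replicates 1 to 4. The groups overlap, since HFCD replicate 4 was above HFCD+FMD replicate 5, and control libraries spanned 0.18 to 1.24. HFCD replicate 3, the library with atrial genes and the largest mitochondrial share, was the lowest. Without it 8 of 36 complex I subunits and 8 of 34 subunits of complexes III to V lay above every HFCD library (22.2% and 23.5%, against 9.37% of all genes), and the medians were 0.17 and 0.15. With HFCD replicate 5 put back the counts were 2 of 36 and 4 of 34 (5.56% and 11.8%, against 2.62%). The 9 mitochondrially encoded genes tested, which supply the other subunits of the same complexes, had a median of -0.09 with 0 above and 0 below, and that median was 0.78 without HFCD replicate 3.

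The ribosome of the mitochondria also had a positive median. Of 75 mitochondrial ribosomal proteins, 12 lay above every HFCD library and 0 below (16%, against 4.1% of all genes), with a median of 0.24. Without HFCD replicate 3 the counts were 16 above and 2 below (21.3% and 2.67%, against 9.37% and 10.1% of all genes). The median member stood at 0.33, 0.25, 0.11 and 0.04 in HFCD+FMD replicates 1, 2, 3 and 5, and at 0.07, 0.0, -0.23 and 0.16 in HFCD replicates 1 to 4, so the diets overlapped. Mrpl46 had 19.1, 19.1, 19.3 and 17.4 CPM under HFCD+FMD, against 12.6, 11.5, 13 and 15 CPM under HFCD (0.52, SE 0.11, adjusted p = 0.143). Mrpl45 had 41.8 to 52.4 CPM and 27.6 to 37.2 CPM in HFCD+FMD and HFCD hearts (0.53, SE 0.12, adjusted p = 0.172). Putting HFCD replicate 5 back left 11 of the 12, since it stood at 11.9 CPM for Mrpl46 and 21.4 CPM for Mrpl45. Tricarboxylic acid cycle genes had a median of 0.17 with 1 of 19 above (5.26%, near the background), which was Mdh1, a malate dehydrogenase of the cytosol, with 1090 to 1431 CPM under HFCD+FMD and 714 to 1069 CPM under HFCD (0.43, SE 0.16, adjusted p = 0.381), and 828 CPM in HFCD replicate 5. The cycle had 2 of 19 above and 2 below (10.5% each, against 9.37% and 10.1% of all genes) when HFCD replicate 3 was left out.

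**Figure D3:**
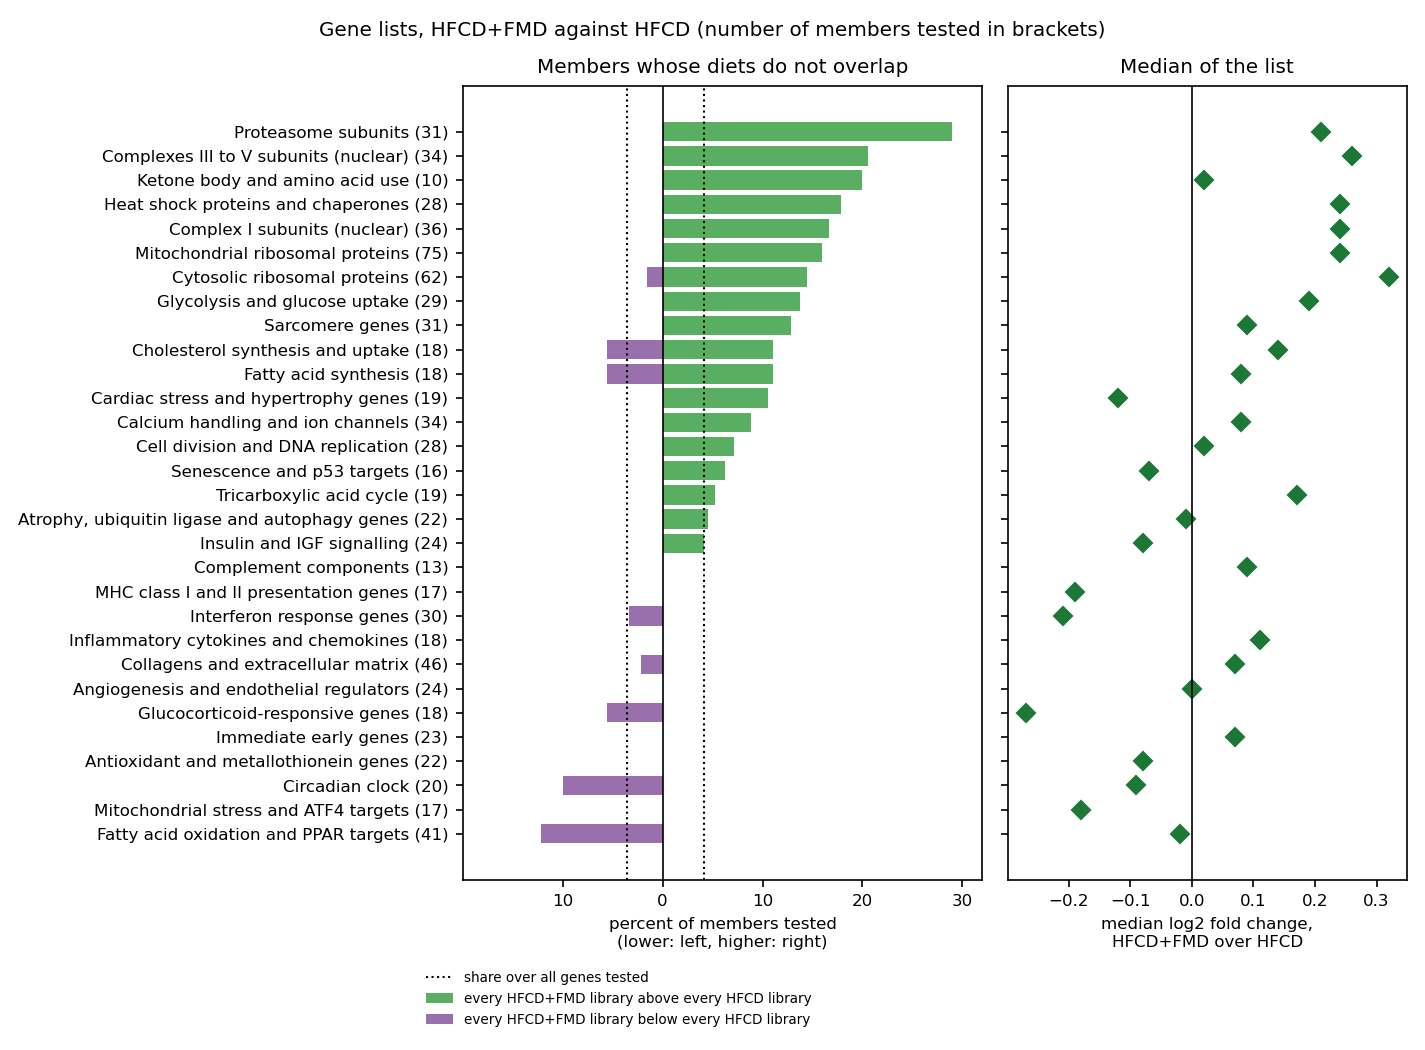
For each gene list with at least 10 members tested, the left panel shows the percent of members whose HFCD+FMD libraries all lay above (right) or below (left) all HFCD libraries, with the shares over all genes tested as dotted lines, and the right panel the median log2 fold change of HFCD+FMD over HFCD. Proteasome subunits have the highest share above (29%), and fatty acid oxidation and PPAR targets the highest share below (12.2%) with 0 above.

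Some fatty acid oxidation and PPAR target genes were lower in each HFCD+FMD heart. Of 41 tested, 5 lay below every HFCD library and 0 above (12.2% and 0%, against 3.52% and 4.1% of all genes), while the median of the list was -0.02. Ucp3, an uncoupling protein of the inner mitochondrial membrane that accompanies fatty acid use, had 31, 26.9, 26.4 and 33.2 CPM in HFCD+FMD libraries, against 56.9, 89, 36.2 and 63.8 CPM in HFCD libraries (-1.07, SE 0.24, adjusted p = 0.154). Angptl4, a secreted inhibitor of lipoprotein lipase, had 5.04, 4.39, 5.25 and 4.45 CPM under HFCD+FMD, against 9.25, 14.1, 5.5 and 8.6 CPM under HFCD (-0.98, SE 0.25, adjusted p = 0.187). HFCD replicate 3 was the lowest HFCD library for both genes and nearly touched the HFCD+FMD range.

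Cpt1a, one of the enzymes that attach fatty acids to carnitine for import into mitochondria, had 37.6, 39.3, 34.5 and 40.1 CPM in HFCD+FMD hearts, against 47.9, 52, 44 and 50.6 CPM in HFCD hearts (-0.36, SE 0.10, adjusted p = 0.203). Ppard, a PPAR receptor itself, had 21.2 to 21.9 CPM and 25.5 to 32 CPM in HFCD+FMD and HFCD libraries (-0.41, SE 0.10, adjusted p = 0.177). The fifth gene was Vldlr, a receptor that takes up lipoproteins, with 259 to 287 CPM under HFCD+FMD and 324 to 398 CPM under HFCD (-0.38, SE 0.11, adjusted p = 0.221). HFCD replicate 5 lay above the HFCD+FMD range for each of the 5 genes, with 110 CPM for Ucp3, 82.2 CPM for Angptl4, 83.1 CPM for Cpt1a and 31.2 CPM for Ppard, so all 5 still did not overlap when it was put back (12.2%, against 2.07% of all genes). Without HFCD replicate 3 the count was 8 of 41 (19.5%, against 10.1%). Control libraries spanned 26.2 to 70.5 CPM for Ucp3, 3.26 to 16.4 CPM for Angptl4 and 30.3 to 49.6 CPM for Cpt1a, which covers or nearly covers both groups. The part of the control diet eaten after the last fast in these levels was not tested.

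Pdk4, the kinase that shuts off pyruvate oxidation, had 437, 374, 332 and 313 CPM under HFCD+FMD, against 459, 1470, 408 and 710 CPM under HFCD (-1.07, SE 0.37, adjusted p = 0.349). HFCD replicate 2 was far above, and without it the difference was -0.54 (adjusted p = 0.603). HFCD replicate 3 lay inside the HFCD+FMD range, and HFCD replicate 5 had 3290 CPM. When the library sets were entered as a factor with HFCD replicate 5 and the controls, the difference of Pdk4 was -2.77 (adjusted p = 0.0405), where HFCD replicate 5 is the only HFCD library that shares a set with HFCD+FMD. Cpt1b, the muscle form of the carnitine enzyme, did not follow (9.35 to 16.4 CPM and 10.6 to 14.9 CPM in HFCD+FMD and HFCD hearts, -0.02, SE 0.18). Ppargc1a, a coactivator that drives mitochondrial genes, ranged from 86.4 to 383 CPM under HFCD+FMD and from 106 to 213 CPM under HFCD (0.31, SE 0.40), and its difference was -0.15 without HFCD+FMD replicate 5.

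**Figure D4:**
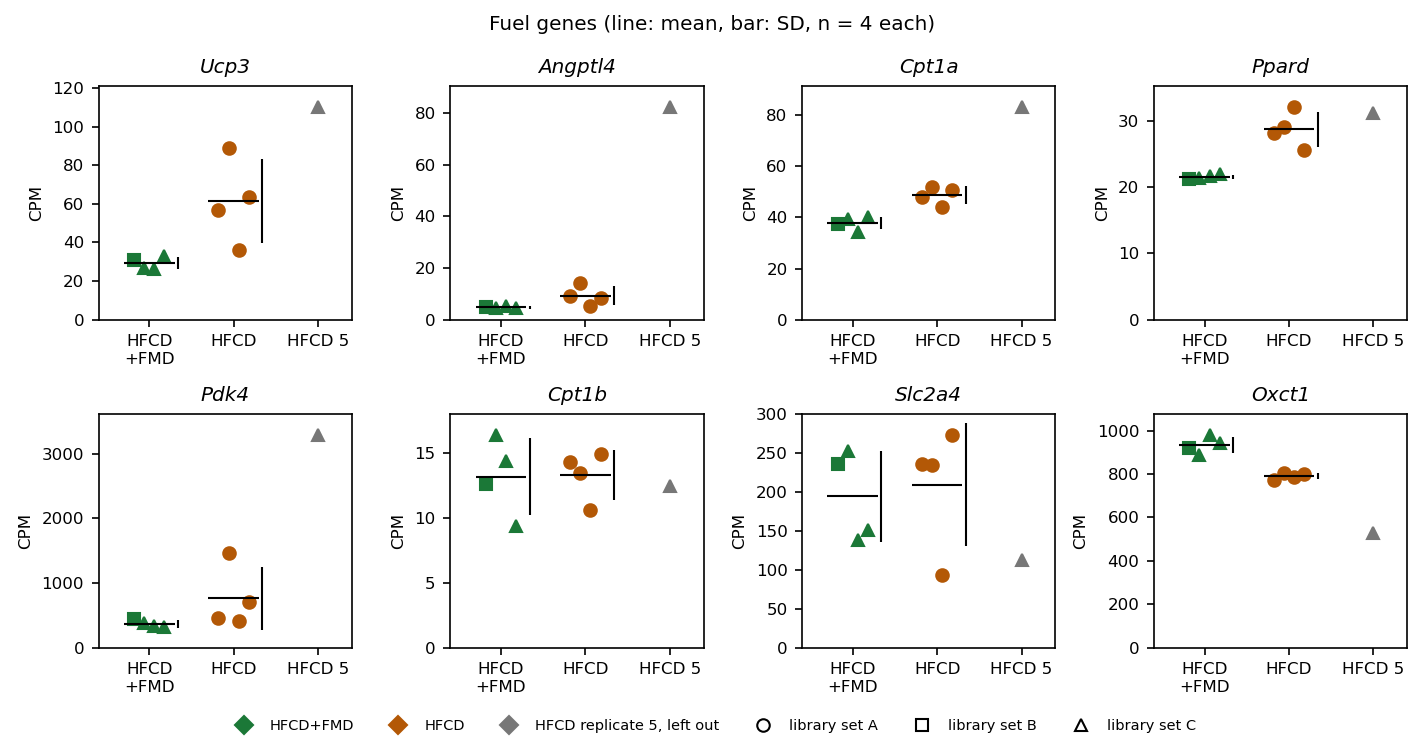
CPM of 8 fuel genes per library, HFCD+FMD left of HFCD, with the library left out at the right, means as lines and SD as bars (n = 4 each). Ucp3, Angptl4, Cpt1a and Ppard have all HFCD+FMD points below all HFCD points, Oxct1 has all HFCD+FMD points above, and Pdk4, Cpt1b and Slc2a4 overlap.

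Genes of glucose and ketone use gave no single direction. Of 29 glycolysis and glucose uptake genes, 4 lay above every HFCD library and 0 below (13.8% and 0%, against 4.1% and 3.52% of all genes), with a median of 0.19. Without HFCD replicate 3 there were 4 above and 3 below (13.8% and 10.3%, against 9.37% and 10.1% of all genes). Pkm, which makes pyruvate, had 370 to 424 CPM under HFCD+FMD and 267 to 329 CPM under HFCD (0.37, SE 0.11, adjusted p = 0.23), with 237 CPM in HFCD replicate 5. Slc2a4, the insulin-dependent glucose transporter, had 236, 253, 138 and 151 CPM in HFCD+FMD libraries, against 236, 234, 93.7 and 273 CPM in HFCD libraries (-0.10, SE 0.33), where the 3 low libraries were those with more than 60% mitochondrial counts, and HFCD replicate 5 had 113 CPM. Slc2a1, the basal glucose transporter, had 9.24 to 10.9 CPM and 8.85 to 12.5 CPM (-0.12, SE 0.13). In the list of ketone body and amino acid use, 2 of 10 lay above and 0 below (20% and 0%, against 4.1% and 3.52% of all genes, median 0.02). They were Oxct1, which activates ketone bodies for burning, with 890 to 980 CPM under HFCD+FMD and 774 to 805 CPM under HFCD (0.24, SE 0.09, adjusted p = 0.409), and Slc16a1, which carries lactate and ketone bodies, with 191 to 278 CPM and 135 to 190 CPM (0.41, SE 0.15, adjusted p = 0.381). In HFCD replicate 5 Oxct1 stood at 528 CPM and Slc16a1 at 159 CPM. The list had 2 above and 2 below (20% each, against 9.37% and 10.1% of all genes) when HFCD replicate 3 was left out.

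The insulin list had 1 of 24 genes above (4.17%, near the 4.1% of all genes), Irs1, the docking protein of the insulin receptor. It had 27.1, 32.8, 36.9 and 45.1 CPM under HFCD+FMD, against 23.6, 23.4, 23.1 and 23.4 CPM under HFCD (0.60, SE 0.15, adjusted p = 0.181), with 28.7 CPM in HFCD replicate 5. In HFCD the 4 libraries were almost equal, and the HFCD+FMD libraries differed among themselves by more than the nearest gap between the groups. When HFCD replicate 3 was left out, the list had 1 above and 4 below (4.17% and 16.7%, against 9.37% and 10.1% of all genes).

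Lipid synthesis genes split. Msmo1, an enzyme of cholesterol synthesis, had 5.96 to 6.86 CPM under HFCD+FMD and 3.82 to 5.21 CPM under HFCD (0.47, SE 0.14, adjusted p = 0.263). Insig1, which holds back the activation of that pathway, was lower, with 8.37, 6.64, 6.45 and 5.72 CPM in HFCD+FMD hearts, against 13.2, 10.9, 11.1 and 13.1 CPM in HFCD hearts (-0.84, SE 0.15, adjusted p = 0.123). Among 18 cholesterol genes 2 lay above and 1 below (11.1% and 5.56%, against 4.1% and 3.52% of all genes), with a median of 0.14. Without HFCD replicate 3 the counts were the same, against 9.37% and 10.1% of all genes. HFCD replicate 5 had 7.71 CPM of Insig1, inside the HFCD+FMD range, and 5.46 CPM of Msmo1, between the diets. Of 18 fatty acid synthesis genes, Acss2 and Elovl6 lay above and Mlxipl, the carbohydrate-sensing transcription factor, lay below (6.75 to 13.9 CPM and 14.5 to 22.2 CPM in HFCD+FMD and HFCD libraries, -0.72, SE 0.23, adjusted p = 0.29). In HFCD replicate 5 Mlxipl stood at 14.1 CPM, between the diets. That list had 2 of 18 above and 1 below (11.1% and 5.56%, against 4.1% and 3.52% of all genes), with a median of 0.08. Without HFCD replicate 3 it had 4 above and 2 below (22.2% and 11.1%, against 9.37% and 10.1% of all genes).

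The proteasome, which degrades tagged proteins, was the list with the largest share of members above every HFCD library among lists with at least 10 members tested. Of 31 proteasome subunits, 9 lay above and 0 below (29% and 0%, against 4.1% and 3.52% of all genes), with a median of 0.21. Psma2, a subunit of the catalytic core, had 39.3, 33.3, 40.6 and 36.8 CPM under HFCD+FMD, against 28.4, 29, 28.9 and 26.9 CPM under HFCD (0.41, SE 0.10, adjusted p = 0.176). Psmc2, an ATPase of the regulatory cap, had 61.2 to 73.5 CPM and 52.8 to 55.7 CPM (0.29, SE 0.09, adjusted p = 0.293). HFCD replicate 5 had 32.5 CPM of Psma2 and 58.7 CPM of Psmc2, between the groups, and with it 5 of 31 remained above (16.1%, against 2.62%). Without HFCD replicate 3 there were 12 of 31 (38.7%, against 9.37%). The median subunit stood at 0.43, 0.21, 0.15 and 0.15 in HFCD+FMD replicates 1, 2, 3 and 5, above the 0.05, 0.04, -0.17 and 0.05 of HFCD replicates 1 to 4, with HFCD replicate 5 between them at 0.13.

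Among 28 heat shock proteins and chaperones, 5 lay above and 0 below (17.9% and 0%, against 4.1% and 3.52% of all genes), with a median of 0.24. Hspe1, the partner of the mitochondrial chaperonin, had 14.4, 9.97, 16.7 and 19.9 CPM in HFCD+FMD libraries, against 6.13, 6.01, 7.78 and 5.94 CPM in HFCD libraries (1.24, SE 0.21, adjusted p = 0.123). Dnaja1, a cochaperone of the cytosol, had 12.7 to 18.4 CPM and 8.46 to 10.8 CPM (0.65, SE 0.14, adjusted p = 0.153). HFCD replicate 5 stood at 11.9 CPM of Hspe1 and 12.4 CPM of Dnaja1, and with it 2 of 28 remained above (7.14%, against 2.62% of all genes). Without HFCD replicate 3 there were 11 of 28 above and 1 below (39.3% and 3.57%, against 9.37% and 10.1% of all genes). The stress-inducible Hspa1a was low everywhere, at 0.674 to 1.84 CPM under HFCD+FMD and 0.389 to 0.752 CPM under HFCD (0.94, SE 0.43, adjusted p = 0.477), and its difference was 0.42 without HFCD+FMD replicate 5.

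Of 62 cytosolic ribosomal proteins, 9 lay above and 1 below (14.5% and 1.61%, against 4.1% and 3.52% of all genes), with a median of 0.32. Without HFCD replicate 3 there were 13 above and 1 below (21.0% and 1.61%, against 9.37% and 10.1% of all genes). The median member stood at 0.59, 0.35, 0.0 and 0.03 in HFCD+FMD replicates 1, 2, 3 and 5, and at 0.12, -0.02, -0.2 and 0.1 in HFCD replicates 1 to 4. The diets overlapped, with HFCD+FMD replicates 1 and 2 as the high libraries. Rps3 of the small subunit had 160 to 184 CPM in HFCD+FMD hearts and 117 to 132 CPM in HFCD hearts (0.52, SE 0.10, adjusted p = 0.123), and Rpl13 of the large subunit had 3.27 to 6.4 CPM and 2.1 to 2.47 CPM (1.15, SE 0.22, adjusted p = 0.123). HFCD replicate 5 had 194 CPM of Rps3, above every HFCD+FMD library, and with it 3 of 62 remained above (4.84%, against 2.62% of all genes). Ribosomal protein genes have many processed copies in the mouse genome, and how the counting treated reads that match several copies was not given in the sources used here, so the levels of these genes are uncertain. The same holds for other short, strongly expressed genes with copies, such as Nme1, Hspe1 and several respiratory chain subunits.

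Genes of the contractile apparatus were higher in a few members. Of 31 sarcomere genes, 4 lay above every HFCD library and 0 below (12.9% and 0%, against 4.1% and 3.52% of all genes), with a median of 0.09. Actc1, the main actin of heart muscle, had 9956, 12760, 10530 and 9272 CPM under HFCD+FMD, against 7000, 5752, 4843 and 6285 CPM under HFCD (0.83, SE 0.17, adjusted p = 0.128), with 2400 CPM in HFCD replicate 5 and 6410 to 9360 CPM in controls. Myh6, the fast heart myosin, had 12230, 13550, 16230 and 15800 CPM in HFCD+FMD libraries, against 11150, 11620, 11580 and 10110 CPM in HFCD libraries (0.38, SE 0.15, adjusted p = 0.404), and 9880 CPM in HFCD replicate 5. Tnnc1, the calcium sensor of the thin filament, had 1295 to 1445 CPM and 1031 to 1179 CPM (0.33, SE 0.10, adjusted p = 0.269), and 815 CPM in HFCD replicate 5. Myl2, the ventricular light chain, was the fourth, with 5262 to 5975 CPM under HFCD+FMD and 4081 to 4962 CPM under HFCD (0.28, SE 0.12, adjusted p = 0.463). All 4 still lay above with HFCD replicate 5 put back (12.9%, against 2.62% of all genes). Without HFCD replicate 3 there were 6 above and 2 below (19.4% and 6.45%, against 9.37% and 10.1% of all genes).

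Actc1, Myh6 and Myl2 are also among the 12 ventricular muscle markers, which summed to 49700 to 57200 CPM under HFCD+FMD and 41200 to 43900 CPM under HFCD. These sums do not overlap, but they are weighted towards strongly expressed members such as these 3. No other of the 12 lay above every HFCD library (25% above, against 4.1% of all genes). The median marker overlapped, at 0.0, 0.08, 0.27 and 0.13 in HFCD+FMD replicates 1, 2, 3 and 5. In HFCD replicates 1 to 4 it stood at 0.04, 0.07, -0.04 and 0.02. Of 12 white adipocyte markers listed only 3 were tested. Their sum was lower under HFCD+FMD without overlap, at 135 to 153 CPM, against 155 to 280 CPM under HFCD. Of the 3 only Plin4 lay below every HFCD library by itself. The median of the 3 stood at -0.3 in both HFCD+FMD replicate 1 and HFCD replicate 3, so by that measure the diets met. The summed markers of endothelium (1410 to 1570 CPM and 1460 to 1640 CPM), smooth muscle and pericytes (2280 to 2770 CPM and 2450 to 2640 CPM), and erythroid cells and platelets (152 to 315 CPM and 225 to 422 CPM) overlapped between HFCD+FMD and HFCD. No tested member of these lists was at 0 in all 8 libraries, and the part of the marker levels in the results was not tested.

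Of 34 calcium handling and ion channel genes, 3 lay above and 0 below (8.82% and 0%, against 4.1% and 3.52% of all genes), with a median of 0.08. Without HFCD replicate 3 there were 6 above and 4 below (17.6% and 11.8%, against 9.37% and 10.1% of all genes). Casq2, which stores calcium in the sarcoplasmic reticulum, had 915, 988, 1152 and 983 CPM in HFCD+FMD hearts, against 646, 643, 903 and 583 CPM in HFCD hearts (0.54, SE 0.16, adjusted p = 0.23), with HFCD replicate 3 close to the HFCD+FMD range and HFCD replicate 5 at 484 CPM. Atp2a2, the calcium pump, had 9764 to 11060 CPM under HFCD+FMD and 7007 to 9739 CPM under HFCD (0.24, SE 0.15, adjusted p = 0.609).

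Genes that mark a stressed or remodelling heart gave no common direction. Nppb, a natriuretic peptide, had 66.3, 153, 89.3 and 38.9 CPM under HFCD+FMD, against 61.8, 42.5, 44.8 and 37.9 CPM under HFCD (0.89, SE 0.36, adjusted p = 0.426), and without HFCD+FMD replicate 2 the difference was 0.47. The library left out had 107 CPM of Nppb, 1540 CPM of Ankrd1 and 9.54 CPM of Acta1. Ankrd1, a stretch-responsive protein of the sarcomere, had 295, 300, 429 and 210 CPM, against 664, 510, 1172 and 305 CPM (-1.10, SE 0.38, adjusted p = 0.336), the highest value being that of HFCD replicate 3, without which the difference was -0.68. Fhl2, a partner of sarcomere and signalling proteins, had 952 to 1215 CPM in HFCD+FMD libraries and 705 to 841 CPM in HFCD libraries (0.42, SE 0.12, adjusted p = 0.221), with 277 CPM in HFCD replicate 5. The fetal myosin Myh7 had 79.2 to 129 CPM and 35.8 to 211 CPM (-0.51, SE 0.46), and skeletal actin Acta1 had 33.2 to 98.3 CPM and 73.4 to 97.2 CPM (-0.32, SE 0.27). In the deposited log2 values of the same 8 libraries Acta1 was instead higher under HFCD+FMD (1.97, limma adjusted p = 0.024). Those values had lost the term per library set, set C of which includes HFCD replicate 5. The p-value takes no account of the removed term. The muscle ubiquitin ligases Trim63 and Fbxo32, which tag muscle proteins for breakdown, differed by -0.31 and -0.26 (SE 0.12 each, adjusted p = 0.381 and 0.485). Of 22 atrophy and autophagy genes 1 lay above and 0 below (4.55%, near the 4.1% of all genes). Without HFCD replicate 3, 3 lay above and 6 below (13.6% and 27.3%, against 9.37% and 10.1% of all genes), Trim63 and Fbxo32 among the 6.

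The matrix counts turned on HFCD replicate 3. Of 46 collagen and extracellular matrix genes 0 lay above and 1 below (0% and 2.17%, against 4.1% and 3.52% of all genes). The one was Tgfb3, a growth factor that promotes matrix deposition, with 11.8 to 14.5 CPM under HFCD+FMD and 15.5 to 19.8 CPM under HFCD (-0.43, SE 0.12, adjusted p = 0.229), and 18.8 CPM in HFCD replicate 5. Without HFCD replicate 3, 8 of 46 lay above and 1 below (17.4% and 2.17%, against 9.37% and 10.1% of all genes), and Col1a1 was among the 8. The chains of the main fibrillar collagens Col1a1 and Col3a1 differed by 0.49 and 0.61 (SE 0.29 and 0.21, adjusted p = 0.601 and 0.337), and without HFCD replicate 3 the difference of Col1a1 was 0.82 (adjusted p = 0.112). HFCD replicate 5 stood at 109 CPM of Col1a1 and 153 CPM of Col3a1. Postn, made by activated fibroblasts, had 54.4 to 113 CPM under HFCD+FMD, against 59.3, 59.7, 229 and 39.4 CPM under HFCD (-0.23, SE 0.52), where the 229 CPM of HFCD replicate 3 set the sign. Without that library the difference was 0.64, and the median of the list was 0.26 in place of 0.07. The fibroblast markers of HFCD replicate 3 summed to 2030 CPM, against 1410 to 1470 CPM in the other HFCD libraries and 1410 to 1860 CPM under HFCD+FMD, and their part in the matrix values was not tested.

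Immune genes of the interferon and antigen presentation groups had negative medians, with overlap between the diets. The median interferon gene stood at -0.12, -0.18, -0.29 and -0.26 in HFCD+FMD replicates 1, 2, 3 and 5, and at 0.06, 0.24, -0.11 and -0.19 in HFCD replicates 1 to 4. For the MHC genes it was 0.13, -0.33, -0.42 and -0.3, and 0.31, 0.08, -0.4 and -0.03, in the same order. Of 30 interferon response genes 0 lay above and 1 below (0% and 3.33%, against 4.1% and 3.52% of all genes), with a median of -0.21. Without HFCD replicate 3 the counts were the same, against 9.37% and 10.1% of all genes. The one was Irf7, a transcription factor that amplifies the interferon response, with 7.93, 6.12, 7.95 and 4.53 CPM in HFCD+FMD hearts, against 13.5, 15.5, 8.42 and 12.7 CPM in HFCD hearts (-0.93, SE 0.23, adjusted p = 0.181), and 9.33 CPM in HFCD replicate 5. Of 17 MHC presentation genes 0 lay above and 0 below, with a median of -0.19, and without HFCD replicate 3 there were 2 below (11.8%, against 10.1%). The median interferon gene was 0.07 or lower under each alternative, and it was above 0 with the library sets as a factor and in the deposited log2 values. Macrophage markers summed to 136 to 210 CPM and 121 to 178 CPM in HFCD+FMD and HFCD libraries.

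Clock and hormone-driven genes touch the time of day and of feeding at which a heart was taken. Of 20 clock genes 0 lay above and 2 below (10%, against 3.52%; median -0.09). Per3 had 12.9 to 14.1 CPM under HFCD+FMD and 15.7 to 20.3 CPM under HFCD (-0.44, SE 0.11, adjusted p = 0.185), and Ciart, a repressor of the clock, had 3.29 to 4.72 CPM and 5.07 to 7.35 CPM (-0.60, SE 0.18, adjusted p = 0.243). HFCD replicate 5 stood below both groups at 4.05 and 1.32 CPM, so 0 of 20 did not overlap with it. With HFCD replicate 3 left out, 4 of 20 lay below (20%, against 10.1%). Dbp, Nr1d1, Arntl and Per1, other members of the clock, differed by -0.21, -0.18, 0.24 and -0.32 (SE 0.16, 0.38, 0.33 and 0.16). In the deposited log2 values Dbp was higher under HFCD+FMD (0.89, limma adjusted p = 0.0426), in a test that took no account of the removed set term. The immediate early gene Fos ran from 1.45 to 62 CPM within HFCD+FMD and from 0.843 to 40.7 CPM within HFCD, and a difference of 0.56 (SE 1.21) was not detectable against that spread. Fkbp5, a glucocorticoid target, differed by -0.47 (SE 0.43). Of 18 glucocorticoid-responsive genes 1 lay below (5.56%, against 3.52% of all genes), with a median of -0.27. Without HFCD replicate 3 that count was the same, against 10.1% of all genes.

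Growth and cell cycle genes overlapped between the diets, apart from a pair of replication proteins. Igf1, the circulating and local growth factor, had 9.42 to 20.2 CPM and 9.41 to 26.2 CPM in HFCD+FMD and HFCD hearts (0.13, SE 0.37). Cdkn1a, which halts the cell cycle under stress, had 19.6 to 38.9 CPM and 22.3 to 60.2 CPM (-0.40, SE 0.34, and -0.04 without HFCD replicate 2). Mki67, a marker of dividing cells, had 4.34 to 11.9 CPM and 6.66 to 18.4 CPM (-0.16, SE 0.38). Of 28 cell division and replication genes 2 lay above every HFCD library (7.14%, against 4.1% of all genes), with a median of 0.02. Without HFCD replicate 3 that count was the same, against 9.37% of all genes. The 2 were the replication proteins Pcna and Mcm3, with differences of 0.45 and 0.44 (SE 0.14 and 0.15, adjusted p = 0.287 and 0.317). Of the 27 genes reported whatever their result, 8 had an unadjusted p below 0.05, and 3 did not overlap between the diets (Ucp3, Angptl4 and Myh6).

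The largest fold changes of the comparison belonged mostly to pseudogenes and followed the library sets. Of 166 pseudogenes tested, 75 (45.2%) were higher in HFCD+FMD replicates 2, 3 and 5 than in each of the other 5 libraries compared, against 326 of 12310 protein-coding genes (2.65%). Fabp3-ps1 is a processed copy of Fabp3, the fatty acid binding protein of heart muscle. Their sequences, from GENCODE M21 on GRCm38, are shown because they differ so little. The first 120 bases of the Fabp3 coding region (chr4:130308778-130312337, plus strand, 2 exon pieces joined) and of the copy (chr10:86732269-86732388, minus strand) follow in the direction of transcription of Fabp3, with capitals at the base that differs.
Fabp3: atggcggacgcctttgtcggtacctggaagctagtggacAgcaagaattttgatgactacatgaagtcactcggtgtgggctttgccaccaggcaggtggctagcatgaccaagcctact
Fabp3-ps1: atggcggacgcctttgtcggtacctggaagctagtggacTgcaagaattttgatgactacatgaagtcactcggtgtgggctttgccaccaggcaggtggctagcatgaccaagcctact
Over the whole coding region the 402 bases differ at 3 (99.3% identity), with a run of 256 identical bases. Fabp3-ps1 had 2.41, 53.8, 78.2 and 57 CPM in HFCD+FMD replicates 1, 2, 3 and 5, against 1.62, 1.31, 2.21 and 1.56 CPM in HFCD replicates 1 to 4, and 54 CPM in HFCD replicate 5 (log2 fold change over the 8 libraries 4.87, SE 0.85, adjusted p = 0.123). The high libraries were those of set C, whichever their diet. Fabp3 itself had 736, 617, 1864 and 1412 CPM under HFCD+FMD, against 736, 817, 1837 and 700.5 CPM under HFCD (0.18, SE 0.42), and was high in the 3 libraries with the most mitochondrial counts.

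Other copies had the same high libraries. Atp5pb-ps, a copy of a subunit of the ATP synthase stalk, had 0.613, 24, 34.7 and 32.7 CPM in HFCD+FMD libraries, against 0.43 to 0.571 CPM in HFCD libraries and 26.5 CPM in HFCD replicate 5, while Atp5pb had 376 to 486 CPM and 279 to 389 CPM under HFCD+FMD and HFCD. Aldoart1, an intronless relative of the aldolase gene that is annotated as protein-coding, had 0.394, 18.6, 24.5 and 24.8 CPM in HFCD+FMD libraries, against 0.0649 to 0.47 CPM in HFCD libraries and 21.4 CPM in HFCD replicate 5. With the sets as a factor the differences of Fabp3-ps1, Atp5pb-ps and Aldoart1 were 0.32, 0.23 and 0.21. Without HFCD+FMD replicate 1, when every remaining HFCD+FMD library was of set C, edgeR called 214 genes, and 167 of the 204 higher ones were pseudogenes.

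**Figure D5:**
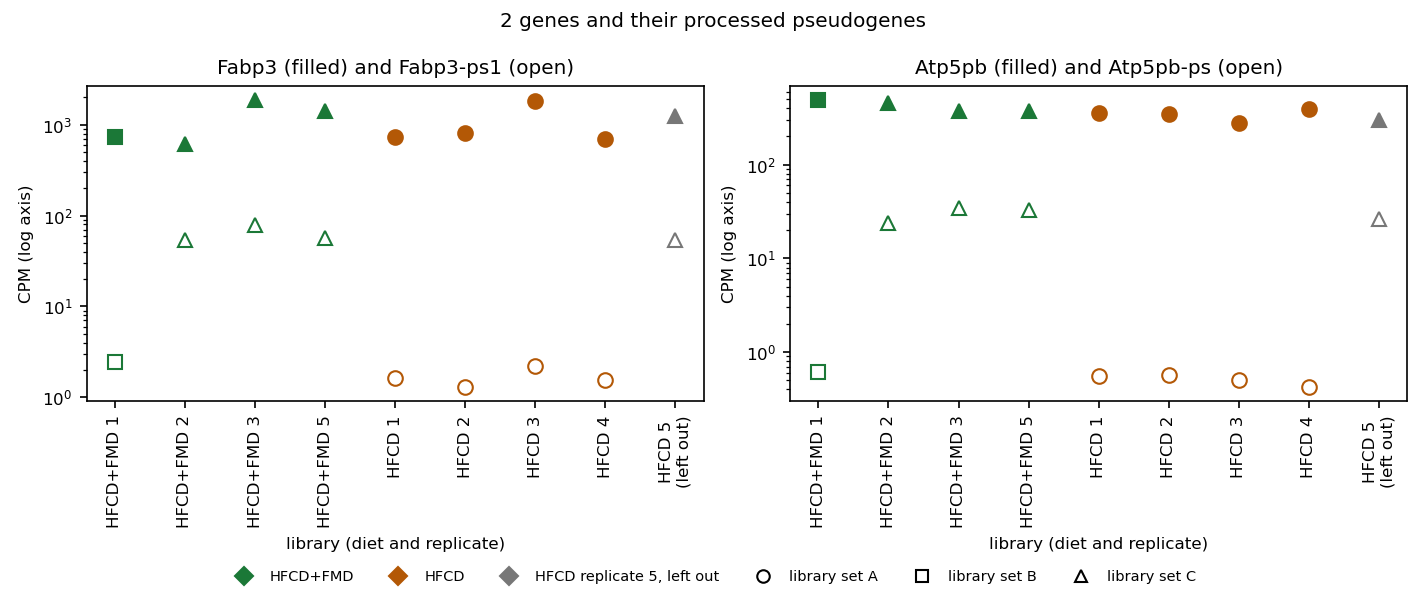
CPM on a log axis of Fabp3 and Atp5pb (filled) and of their processed copies (open) in the 4 HFCD+FMD libraries, the 4 HFCD libraries and the library left out, with marker shape giving the library set. The copies are high in the 4 libraries of set C (Fabp3-ps1 at 53.8 to 78.2 CPM) and low in the other 5 (1.31 to 2.41 CPM).

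A difference particular to heart would show in a test against adipose tissue of the same diets. The 8 heart libraries and 10 adipose libraries (6 of HFCD+FMD, 4 of HFCD) were fitted together as independent libraries. The design text counts 18 mice for the 34 libraries, so a heart and an adipose library can share a mouse. Which ones do is not in the labels, and the p-values take no account of it. In that fit 4 of 12604 genes (0.0317%) passed the test of the tissue-by-diet difference (edgeR, adjusted p below 0.05). Cd59a, which protects cells from complement, had 75.8 to 94.1 CPM in HFCD+FMD hearts and 56.9 to 69.9 CPM in HFCD hearts (0.39, SE 0.13), against 74.5 to 122 CPM and 147 to 182 CPM in adipose tissue of the same diets (-0.69, SE 0.12), so that the tissues went opposite ways (difference 1.08, SE 0.18, adjusted p = 0.0461). Ppic, a cyclophilin that folds proteins, had 16 to 19.3 CPM and 16.3 to 18.3 CPM in HFCD+FMD and HFCD hearts (0.04) and was lower in adipose tissue, with 38.8 to 47.2 CPM under HFCD+FMD, against 64.3 to 68.5 CPM under HFCD (-0.66; difference 0.70, SE 0.11, adjusted p = 0.0461).

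Mlip, a muscle protein that binds lamins, had 127 to 190 CPM in HFCD+FMD hearts and 129 to 159 CPM in HFCD hearts (0.19), and below 1 CPM in every adipose library (-2.68; difference 2.87, adjusted p = 0.0461). Gm8276, a processed pseudogene, had 0.277, 3.15, 2.77 and 3 CPM in HFCD+FMD hearts and 0 to 0.337 CPM in HFCD hearts (4.68), with an adipose difference of -0.11 (difference of the tissues 4.79, adjusted p = 0.0476), and in heart it followed the library sets. The count moved from 0 to 50 when single heart libraries were left out, with 50 without HFCD+FMD replicate 1, 10 without HFCD replicate 3 and 0 without any of the other heart libraries, and was 0 to 16 when single adipose libraries were left out.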

How the data were processed

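RNA was extracted with RNeasy columns and libraries were made with the KAPA RNA Hyper+RiboErase HMR kit, per the labels' protocols. The submitters' processing notes name STAR 2.5.3, mm10, R 3.5.3, edgeR and limma. The counting program and its treatment of reads matching several genes were not given in the sources used here. The deposited files hold unnormalised read counts for each gene, and also the authors' log2 CPM values, from which a term per library set had been removed, as a comparison of both tables showed. All per-sample columns were used (0 left out).

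Counts were fitted in R 4.3.3 with edgeR 4.0.16 (TMM scaling, filterByExpr on diet, robust quasi-likelihood F-test, two-sided, Benjamini-Hochberg over 13060 genes at 0.05), on 8 libraries with no batch term. CPM values are TMM-scaled over these 8 libraries, and the library left out and the controls are on the same scale. For log2 CPM a prior count of 2 was added. Log2 fold changes are HFCD+FMD over HFCD. Alternatives were RLE scaling, scaling without mitochondrial genes, 2 other filters, DESeq2 1.42.0, limma 3.58.1 voom with and without quality weights, added libraries, the sets or age as a term, the deposited log2 values and leaving out each library. On simulated data the fit called 68% of genes changed by 1 on the log2 scale and 96% of those changed by 2. Those counts were drawn independently from the fitted dispersions, and only genes above 1 CPM were changed. They held no library sets and no shared swing of mitochondrial counts. These percentages are therefore not the power of the fit on the libraries compared. Symbols are those of the deposited tables, with 54 taken from GENCODE M21 (GRCm38), which also gave coordinates.

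The members, tests and gene lists were chosen with earlier results of these data known. Since fewer than 5 genes passed, the rule named the 10 genes with the smallest p, 1 CPM or more on average in a diet and no predicted or clone name, as not passing. A further 27 genes are reported whatever their result, and some items are not reported here. List members and pseudogenes named beyond these were chosen after their values were seen. Labels do not say that libraries came from separate animals, apart from the 18 mice in the design text, so p-values measure the spread between libraries. No pair of replicates agreed within sampling noise.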

Additional observations from a re-analysis of the deposited data

Results flagged for a closer look

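Groups of 4 libraries were examined for a library far from the other 3, in 96 groups, and 12 stood out. Chance alone flags about 1 in 20 such groups. HFCD replicate 3 stood apart in Sln (5.08 log2 CPM), Mnt (16.9 CPM), Postn (229 CPM), Igf1 (26.2 CPM) and the pseudogene share of the other counts (0.09%). HFCD+FMD replicate 1 stood apart in Tuba4a (625 CPM) and Mir6236 (73.9 CPM). HFCD+FMD replicate 5 was far from its group in Bmp10 (1.42 log2 CPM) and Hspa1a (1.84 CPM), and HFCD+FMD replicate 3 in Adipoq, a fat cell gene (-1.37 log2 CPM). HFCD replicate 1 was low in Bmp10 (-1.35 log2 CPM, 9 counts) and HFCD replicate 4 high in Hspa1a (0.75 CPM). Bmp10 chose the library left out, so its flags, which are among the 12, are a description and not a test. The difference between the diet groups was not the same in heart and adipose tissue for Mlip (2.87), Ppic (0.70), Cd59a (1.08) and Gm8276 (4.79 on the log2 scale), by the interaction test given with these genes. In heart that difference cannot be told apart from the library sets, which Gm8276 followed. The library left out carried Bmp10 at 9.73 log2 CPM, far above the controls.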

How the results depend on the processing

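The count of called genes was 0 in the 8-library fit and 0 with RLE scaling, scaling without mitochondrial genes, either other filter, voom, age as a covariate, HFCD replicate 5 put back and protein-coding genes only. It was 426 with DESeq2, 38 with voom quality weights, 77 with controls added, 14 with the sets as a factor (all lower), 441 in the deposited log2 values, and 430 with HFCD replicate 3 and HFCD+FMD replicate 1 both left out, an alternative chosen after seeing the data. The tests on the deposited values took no account of the set term removed from them, so their counts and p-values are given with that limit. Leaving out single libraries gave 0 to 214, the 214 without HFCD+FMD replicate 1. Of the 37 genes named by rule, the counts under these settings were 12 with DESeq2, 9 with quality weights, 4 with controls, 1 with sets, 13 in deposited values and 13 with both left out, and 0 to 10 without single libraries. For list members they were 50, 7, 2, 5, 58 and 31, and 0 to 5. The tissue-by-diet count of 4 was 6 with RLE scaling, 0 with voom and 0 to 50 without single libraries. The mitochondrial share difference ran from -6.71 to 6.82 without single libraries. The cause of these moves was not tested.

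Signs turned for some genes, none of which passed in the 8-library fit, and Acta1 and Dbp passed with the opposite sign in the deposited log2 values (adjusted p = 0.024 and 0.0426, limma). Neither gene passed with the sets as a factor in the fit (edgeR adjusted p = 0.143 and 0.239). With the sets as a factor, log2 fold changes were 0.47 for Slc2a4, 0.99 for Dbp, -1.24 for Arntl, 0.19 for Myh7, 2.24 for Acta1, 0.12 for Postn, -0.60 for Igf1, -0.13 for Ppargc1a, -0.25 for Hspa1a, -0.52 for Fos, 0.85 for Mki67, 0.82 for Per3, 0.51 for Ciart, -0.13 for Gpi-ps and -0.04 for Fabp3. In the deposited values they were 0.45 for Slc2a4, 0.89 for Dbp, -0.96 for Arntl, 1.97 for Acta1, 0.12 for Postn, -0.55 for Igf1, -0.31 for Ppargc1a, -0.19 for Hspa1a, -0.33 for Fos, 0.70 for Mki67, 0.70 for Per3, 0.41 for Ciart, -0.04 for Gpi-ps and -0.11 for Fabp3. With HFCD replicate 5 put back they were 0.0 for Cpt1b, 0.03 for Slc2a4, 0.01 for Dbp, -0.72 for Arntl, -0.10 for Igf1 and 0.10 for Mki67. Quality weights gave 0.02 for Nr1d1, -0.15 for Arntl, 0.44 for Postn and 0.14 for Mki67, and voom gave 0.08 for Postn. With both libraries left out, Nr1d1 was at 0.34, Postn at 0.79 and Mki67 at 0.46.

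Without single libraries the ranges were -0.14 to 0.12 for Cpt1b, -0.35 to 0.05 for Slc2a4, -0.52 to 0.19 for Nr1d1, -0.19 to 0.42 for Arntl, -0.74 to 0.02 for Fkbp5, -0.49 to 0.64 for Postn, -0.03 to 0.59 for Igf1, -0.15 to 0.56 for Ppargc1a, -0.80 to 1.86 for Fos, -0.33 to 0.23 for Mki67 and -0.15 to 0.62 for Fabp3. No paired analysis was possible because the replicate numbers are accession-order names that do not tie a library of one diet to a library of the other.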
